A study of Mus musculus with 6 samples.

Results

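Sterol synthesis and its control by SREBP2 were followed through 28 genes of the mevalonate pathway, of cholesterol synthesis and of the SREBP2 feedback loop, among 55341 genes listed in each count table. The genes were chosen by name and pathway step, with the fold changes of GSK-126 over DMSO in these same libraries already known, so that contrast describes them and supports nothing about them. All 28 passed the filter on low counts that left 16343 genes tested, and they were placed before squalene (9 genes), after squalene (11 genes), in sterol uptake and transport (2 genes) and in feedback (6 genes).

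RNA-seq was performed on cultured cerebellar granule neurons (CGNs), the small excitatory neurons of the cerebellar cortex, treated with DMSO as vehicle (n = 3) or with GSK-126 (n = 3), an inhibitor of EZH2, which trimethylates histone H3 at lysine 27. The study's methods describe granule neuron progenitors of postnatal CD1-IGS mice, enriched on a Percoll gradient, with cytosine arabinoside added to all cultures against dividing cells, and a single addition of inhibitor on either of a pair of days in culture, with the same day of harvest. Which of these treatments the libraries received is not settled by the labels, which give no dose, day, age or genotype. A replicate in culture is defined as neurons from pooled litters, so it is not 1 animal, and nothing states that DMSO and GSK-126 libraries of 1 number came from the same pool. The labels name cerebellum as the tissue although the titles name CGNs.

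Cholesterol is built from acetyl-CoA through mevalonate and isoprenoid units to squalene, which is then oxidised, cyclised to lanosterol and trimmed to cholesterol. When sterols are low in the endoplasmic reticulum, SCAP carries the membrane-bound factor SREBP2 to the Golgi, where the site-1 and site-2 proteases release its active part, and the genes of the pathway are transcribed from sterol response elements that often lie near NF-Y and Sp1 sites. When sterols are plentiful, INSIG proteins hold SCAP back. Neurons and glia of the brain depend on local synthesis, since lipoprotein cholesterol does not cross the blood-brain barrier.

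Promoters of the genes are shown, and the sequence itself was not used to choose them. The pathway is known for control through sterol response elements, however, so the motif shares below are not independent of the choice. RefSeq promoters of GRCm38.p6, each 300 bases long with 250 before and 50 after the start site, were found for 24 of the 28 genes. Those of Fdps, Fdft1, Sqle and Stard4 were not matched. The 6 sequences below were picked after the values were seen, as examples with and without sterol response element matches. They run 5′ to 3′ on the gene's strand, end at the start site or earlier where the GENCODE gene model begins, and carry in capitals the matches to TCACNNCA or TCACNCCAC and the CCAAT boxes, on either strand. They lie at chr13:119690101-119690350 (plus strand, Hmgcs1), chr1:169969242-169969455 (minus strand, Hsd17b7), chr15:82147019-82147180 (plus strand, Srebf2), chr5:28071162-28071362 (plus strand, Insig1), chr5:114444019-114444268 (plus strand, Mvk) and chr8:119558762-119559011 (minus strand, Mbtps1).
Hmgcs1: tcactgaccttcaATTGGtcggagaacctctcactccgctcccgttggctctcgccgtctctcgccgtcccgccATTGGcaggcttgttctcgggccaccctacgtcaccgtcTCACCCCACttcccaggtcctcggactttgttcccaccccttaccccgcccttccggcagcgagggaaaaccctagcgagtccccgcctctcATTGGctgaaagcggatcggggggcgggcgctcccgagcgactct
Hsd17b7: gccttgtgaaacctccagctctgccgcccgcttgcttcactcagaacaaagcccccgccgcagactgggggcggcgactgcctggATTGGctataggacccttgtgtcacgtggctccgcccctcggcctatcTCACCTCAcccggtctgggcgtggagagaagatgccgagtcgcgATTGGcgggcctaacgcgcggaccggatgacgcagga
Srebf2: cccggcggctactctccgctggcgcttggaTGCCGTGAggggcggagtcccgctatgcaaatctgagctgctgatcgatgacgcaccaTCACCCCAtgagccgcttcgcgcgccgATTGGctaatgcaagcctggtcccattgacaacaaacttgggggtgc
Insig1: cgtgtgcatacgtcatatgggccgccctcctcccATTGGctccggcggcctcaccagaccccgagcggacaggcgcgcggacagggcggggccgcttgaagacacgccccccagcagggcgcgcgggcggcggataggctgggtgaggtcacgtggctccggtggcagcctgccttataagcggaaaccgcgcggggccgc
Mvk: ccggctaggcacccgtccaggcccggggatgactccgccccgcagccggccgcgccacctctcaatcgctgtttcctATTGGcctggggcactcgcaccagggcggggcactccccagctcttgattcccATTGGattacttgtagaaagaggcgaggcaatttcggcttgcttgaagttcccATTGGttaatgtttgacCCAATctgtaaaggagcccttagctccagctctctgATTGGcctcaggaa
Mbtps1: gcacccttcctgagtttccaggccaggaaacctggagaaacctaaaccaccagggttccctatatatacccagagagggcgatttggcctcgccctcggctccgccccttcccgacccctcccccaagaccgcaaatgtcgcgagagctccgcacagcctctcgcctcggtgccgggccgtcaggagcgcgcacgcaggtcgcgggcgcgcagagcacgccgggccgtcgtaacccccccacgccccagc

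In the Hmgcs1 promoter the match to TCACNCCAC began 137 bases before the start site, with CCAAT boxes on both of its sides. The Hsd17b7 promoter held a TCACNNCA match that began 117 bases before the start, and the Srebf2 promoter held a pair of such matches and a CCAAT box. The Insig1 and Mvk promoters held CCAAT boxes without a match to either sterol response element pattern, and the Mbtps1 promoter held neither pattern and no CCAAT box. An absent match says only that the letters are not within this window.

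Over the 24 matched genes the 300-base promoters were searched on both strands, and a gene was counted when any of its RefSeq promoters held the letters. TCACNNCA, a loose form of the sterol response element, was present in 10 of 24 genes (41.7%), beside 13.8% of 11454 tested genes with a promoter entry and 13.8% of all promoters. The stricter TCACNCCAC, each match of which is also a match to TCACNNCA, was present in Hmgcs1 alone (4.17%), beside 1.43% of tested genes and 1.24% of all promoters. The NF-Y box CCAAT was present in 20 of 24 (83.3%) beside 42.6% of tested genes and 37.4% of all promoters. The Sp1 box GGGCGG was present in 21 of 24 (87.5%) beside 66.8% of tested genes and 35.7% of all promoters. The genes with TCACNNCA were Hmgcs1, Pmvk, Cyp51, Msmo1, Nsdhl, Hsd17b7, Sc5d, Dhcr7, Insig2 and Srebf2. These shares are descriptions, with no test, and a match is not evidence of binding.

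**Figure D1:**
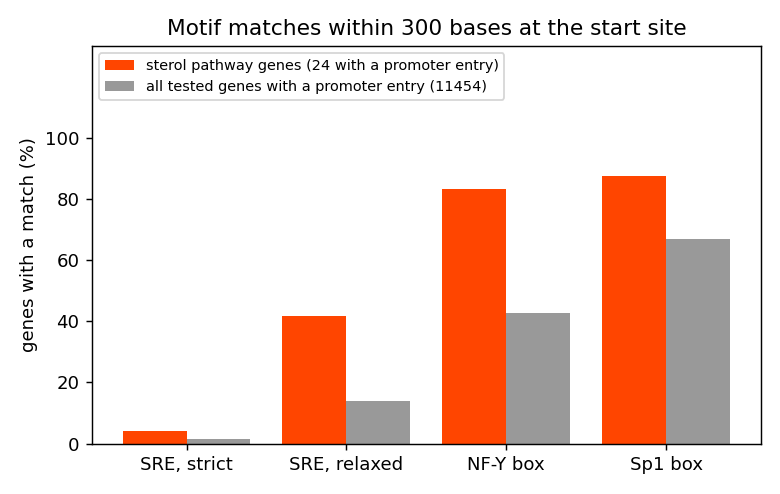
Share of genes (%) with at least 1 match to each motif within 300 bases at the start site, for the 24 sterol pathway genes with a RefSeq promoter (orange) and for all 11454 tested genes with one (grey). The orange bar is the taller of the pair for each of the 4 motifs, from 4.17% against 1.43% for the strict sterol response element to 87.5% against 66.8% for the Sp1 box.

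The libraries held 8573045, 8058760 and 8452278 counts over genes in DMSO replicates 1, 2 and 3, and 12047837, 8377056 and 8863661 in GSK-126 replicates 1, 2 and 3. Levels are given as CPM, in which library sizes were scaled by TMM factors, and between genes as RPKM, CPM per kilobase of exon. Libraries with the same replicate number deviated together from their group means, with r of 0.351, 0.503 and 0.517 across genes for numbers 1, 2 and 3. Differences were read from edgeR's quasi-likelihood fit over all genes tested, in which replicate number was a blocking term, and a gene was called at a Benjamini-Hochberg adjusted p under 0.05. With the block, 365 genes (2.23%) were called higher and 232 (1.42%) lower. Without it, 0 genes (0%) were called by edgeR, 981 had an unadjusted p under 0.05, and the smallest adjusted p was 0.245, while DESeq2 without the block called 46 genes (0.281%) higher.

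In DMSO the pathway was well represented. The 28 genes had a median rank at the 76.3 percentile of RPKM over all genes tested, and individual genes lay between the 3.3 and the 97.8 percentile. The highest RPKM belonged to Hmgcs1, the HMG-CoA synthase that starts the committed pathway, at 97.1 ± 9.68 (SD, n = 3). Srebf2, which encodes SREBP2, followed at 49.2 ± 2.82 RPKM, then the squalene epoxidase Sqle at 43.8 ± 1.86 RPKM, Insig1 at 41.1 ± 5.14 RPKM and the lanosterol demethylase Cyp51 at 40.1 ± 4.62 RPKM. Hmgcs1 stood clear of the rest by more than the spread between replicates, whereas the ranges of mean ± SD of Sqle, Insig1 and Cyp51 overlapped. At the low end were Lss at 5.07 ± 0.853 RPKM, Tm7sf2 at 5.22 ± 1.04 RPKM and Mbtps2 at 5.38 ± 0.444 RPKM, whose ranges overlapped as well, and below them Fdps at 0.425 ± 0.330 RPKM. The median RPKM over all genes tested was 6.37. Between DMSO replicates the genes varied with a median coefficient of variation of 12.9%, beside 17.9% over all genes tested. It was 17.1% over tested genes with a DMSO mean between 1.79 and 446 CPM, the range of the 28. That range is wide and does not match genes by level, so these values do not show less variation than in genes of like level.

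Under GSK-126 the summed level of the 28 genes was 3590, 4120 and 3410 CPM in replicates 1, 2 and 3, against 2800, 2740 and 2470 CPM with DMSO. Every GSK-126 library lay above every DMSO library, and the ratio within a pair was 1.28, 1.51 and 1.38. The fitted log2 fold changes ran from -0.36 to 0.94 with a median of 0.48, beside a median of -0.002 over all genes tested. They were above 0 for 23 of 28 genes, beside 49.6% of all genes tested. With the block, 13 of 28 genes were called higher (2.23% of all genes tested) and 0 were called lower (1.42%), with adjusted p from edgeR between 0.00245 and 0.0416 among those called. Without the block edgeR called 0 of 28 (0% of all genes tested), and the median log2 fold change was 0.44. In that fit 16 of 28 had an unadjusted p under 0.05, beside 981 of the 16343 genes tested. GSK-126 libraries did not overlap DMSO libraries for 17 genes that were higher (5.43% of all genes tested) and for 1 gene that was lower (5.44%). All 3 pairs were higher under GSK-126 for 18 of 28 genes (19.7%). Since the contrast was known when the genes were listed, these counts are descriptions.

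**Figure D2:**
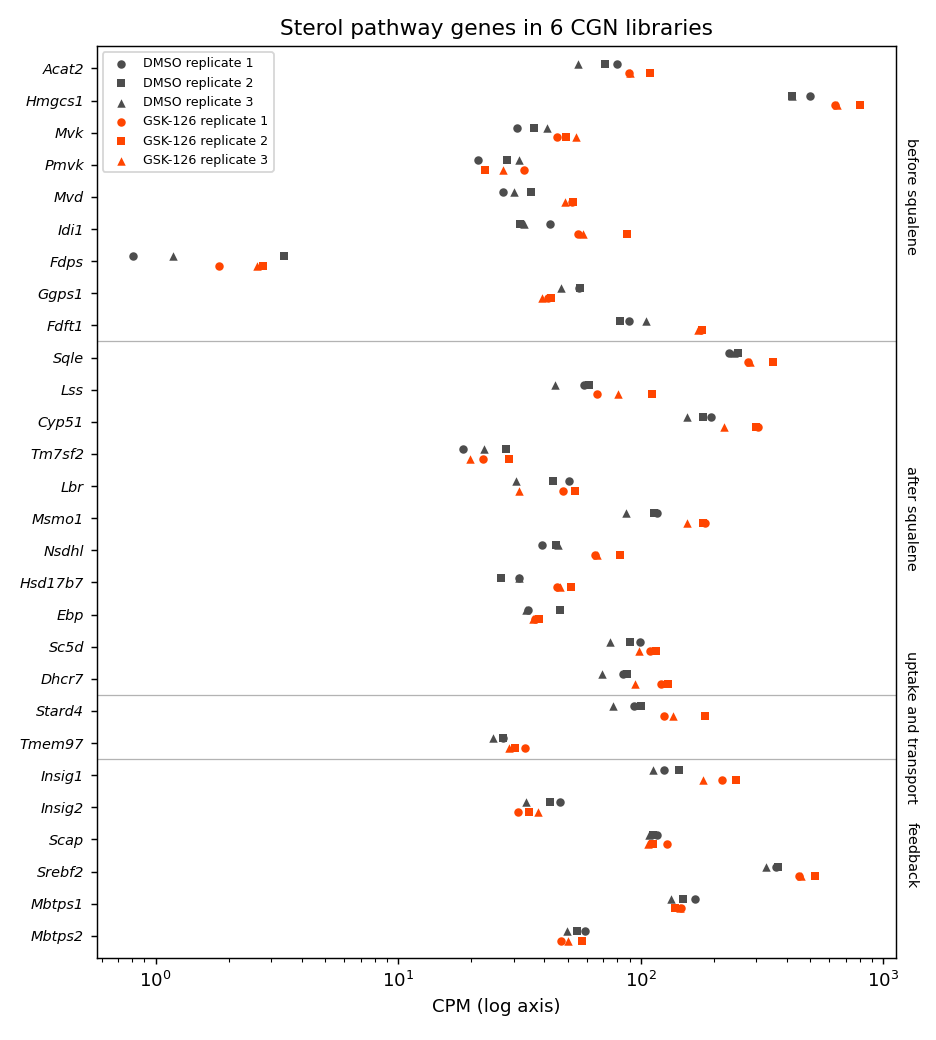
Level of each of the 28 genes in the 6 libraries, in CPM on a log axis, with DMSO in grey and GSK-126 in orange, a marker shape for each replicate number and the pathway step at the right. The orange points of genes such as Fdft1, Msmo1 and Insig1 lie wholly to the right of the grey ones, those of Ggps1 lie wholly to the left, and those of Scap and Mbtps2 overlap them.

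Before squalene, the summed level of the 9 genes was 845, 764 and 766 CPM with DMSO and 1130, 1350 and 1140 CPM with GSK-126. Of these genes 4 were called higher (2.23% of all genes tested), with a median log2 fold change of 0.59. That median is the value of Fdps, which had few counts, and it was 0.56 over the other 8 genes. Hmgcs1 (chr13:119690379-119708260 in GRCm38) stood at 498, 419 and 422 CPM with DMSO and at 633, 802 and 645 CPM with GSK-126 in replicates 1, 2 and 3. Its groups did not overlap, and the fitted difference was 0.63 (SE 0.120) on the log2 scale. Of the exon bases of Hmgcs1, 12.1% are shared with Gm48342, a gene on the other strand that was itself called higher (log2 fold change 0.61, adjusted p from edgeR 0.0304). If the reads of Gm48342 lay evenly along it, those over the shared stretch would amount to 10.1% of the Hmgcs1 level with DMSO and 9.95% with GSK-126. Whether reads of Hmgcs1 were instead counted for Gm48342 was not tested, so its call may not be that of a separate gene.

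Mvd, the decarboxylase that makes isopentenyl diphosphate, measured 27.2, 35.4 and 30.0 CPM with DMSO and 52.2, 52.8 and 49.0 CPM with GSK-126, with no overlap (0.74, SE 0.134). Idi1, which isomerises that product, measured 42.2, 31.9 and 33.0 CPM against 55.0, 88.1 and 57.9 CPM (0.88, SE 0.180). GSK-126 replicate 2 was the highest for Idi1, and the differences within pairs 1, 2 and 3 were 0.38, 1.46 and 0.81 on the log2 scale. Of the exon bases of Idi1, 9.22% are shared with Gm48574 on the other strand. Spread evenly, Gm48574 reads there would come to 1.03% of the Idi1 level with DMSO and 0.96% with GSK-126. Mvk, the mevalonate kinase, also had separate groups, at 31.0, 36.4 and 41.2 CPM against 45.2, 49.3 and 54.2 CPM, but was not called (0.46, SE 0.125).

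The thiolase Acat2, which joins acetyl-CoA units at the first step, was not called either, at 79.6, 71.4 and 55.2 CPM with DMSO and 89.9, 109 and 90.5 CPM with GSK-126 (0.50, SE 0.128). These groups were separate, and DESeq2 with the block called Acat2 higher. Pmvk, the kinase between Mvk and Mvd, did not follow its neighbours, at 21.3, 28.1 and 31.4 CPM against 32.9, 22.8 and 27.1 CPM, with groups that overlapped and a log2 difference of 0.04 (SE 0.192). Only pair 1 was higher for Pmvk.

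At the branch from farnesyl diphosphate, the genes differed in direction. Ggps1, whose product makes geranylgeranyl diphosphate for protein prenylation rather than sterols, measured 55.5, 56.4 and 47.0 CPM with DMSO and 41.6, 42.7 and 39.3 CPM with GSK-126. It was the gene of the 28 whose GSK-126 libraries all lay below the DMSO libraries, with a log2 difference of -0.36 (SE 0.122), and was not called. Fdft1, the squalene synthase that commits farnesyl diphosphate to sterols (chr14:63145150-63179578), measured 89.9, 82.0 and 105 CPM with DMSO and 177, 179 and 173 CPM with GSK-126, the largest fitted difference of the 28 (0.94, SE 0.115). Its count is uncertain. Of its exon bases 18.3%, or 774 bases, are shared with Ctsb, a lysosomal protease gene on the other strand with 1740, 1500 and 2300 CPM against 3200, 2080 and 3270 CPM (log2 fold change 0.62, adjusted p from edgeR 0.0114). Spread evenly, Ctsb reads over that stretch would come to between 192 and 418 CPM per library, more than the whole Fdft1 level. Reads spread in that way cannot all have been counted for Fdft1, so this estimate gives no size for the Ctsb part. The strand setting of the authors' count is not stated, and the part of Ctsb in the Fdft1 value was not tested. Without Fdft1, 12 genes were called higher.

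Fdps, the farnesyl diphosphate synthase, held only 7, 27 and 10 counts with DMSO and 22, 23 and 23 counts with GSK-126, so that its difference of 0.59 (SE 0.486) could not be told from 0 at this depth. Reads that align to several places were not assigned to genes in these tables, and 26.7% of its exon bases are shared with a predicted gene on the same strand, so its level is uncertain.

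After squalene, the 11 genes summed to 962, 976 and 838 CPM with DMSO and 1280, 1440 and 1130 CPM with GSK-126. Of these genes 6 were called higher (2.23% of all genes tested), with a median log2 fold change of 0.51. Sqle, the epoxidase that opens this stage and is a known control point of the pathway, measured 232, 253 and 243 CPM against 276, 353 and 282 CPM. Its groups were separate but the difference was small (0.31, SE 0.104), and it was not called. Lss, which cyclises oxidosqualene to lanosterol, measured 58.5, 61.4 and 44.2 CPM against 65.9, 111 and 80.4 CPM and was called higher (0.63, SE 0.147). For Lss the differences within pairs 1, 2 and 3 were 0.17, 0.85 and 0.86, so pair 1 moved least. Of the exon bases of Lss, 3.53% are shared with 4930483K19Rik on the other strand (log2 fold change 0.63, not called). Spread evenly, reads of that gene there would come to 4.49% of the Lss level in both groups.

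The genes that remove the methyl groups of lanosterol moved alike. Cyp51, which shares 3.76% of its exon bases with Akap9 on the other strand, measured 195, 181 and 155 CPM with DMSO. With GSK-126 it measured 305, 298 and 220 CPM (0.62, SE 0.103). Msmo1, the C4-methyl oxidase, measured 117, 114 and 87.3 CPM against 185, 180 and 155 CPM (0.71, SE 0.106). Both had separate groups and a higher level in each of the 3 pairs. Nsdhl, the decarboxylating dehydrogenase of the same complex, measured 39.2, 44.9 and 45.7 CPM against 65.1, 82.4 and 66.1 CPM (0.71, SE 0.123). Hsd17b7, the ketoreductase that completes each round, measured 31.6, 26.5 and 31.5 CPM against 45.3, 51.4 and 46.5 CPM (0.68, SE 0.141). All 4 of these genes were called higher, and their fitted differences lay within 1 standard error of each other.

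The C14-reductases did not move with them. Tm7sf2 measured 18.6, 27.8 and 22.7 CPM with DMSO and 22.4, 28.7 and 19.8 CPM with GSK-126 (0.04, SE 0.163), and Lbr, a nuclear envelope protein with the same activity, measured 50.6, 43.5 and 30.5 CPM against 47.7, 53.4 and 31.4 CPM (0.08, SE 0.133). Both sets of groups overlapped. Of the exon bases of Tm7sf2, 12.1% are shared with Vps51 on the same strand, and of those of Lbr 9.24% with Dnah14 on the other.

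Of the last steps, Dhcr7, the reductase that turns 7-dehydrocholesterol into cholesterol, was called higher, at 84.7, 87.9 and 69.6 CPM with DMSO and 121, 130 and 95.0 CPM with GSK-126 (0.51, SE 0.106). Ebp, the sterol isomerase, measured 34.4, 46.3 and 33.8 CPM against 36.8, 38.1 and 36.0 CPM and overlapped (-0.03, SE 0.140). Sc5d, the desaturase between them, measured 99.2, 90.0 and 74.6 CPM against 109, 116 and 98.6 CPM. All 3 pairs of Sc5d were higher, but its groups overlapped and it was not called (0.30, SE 0.110).

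**Figure D3:**
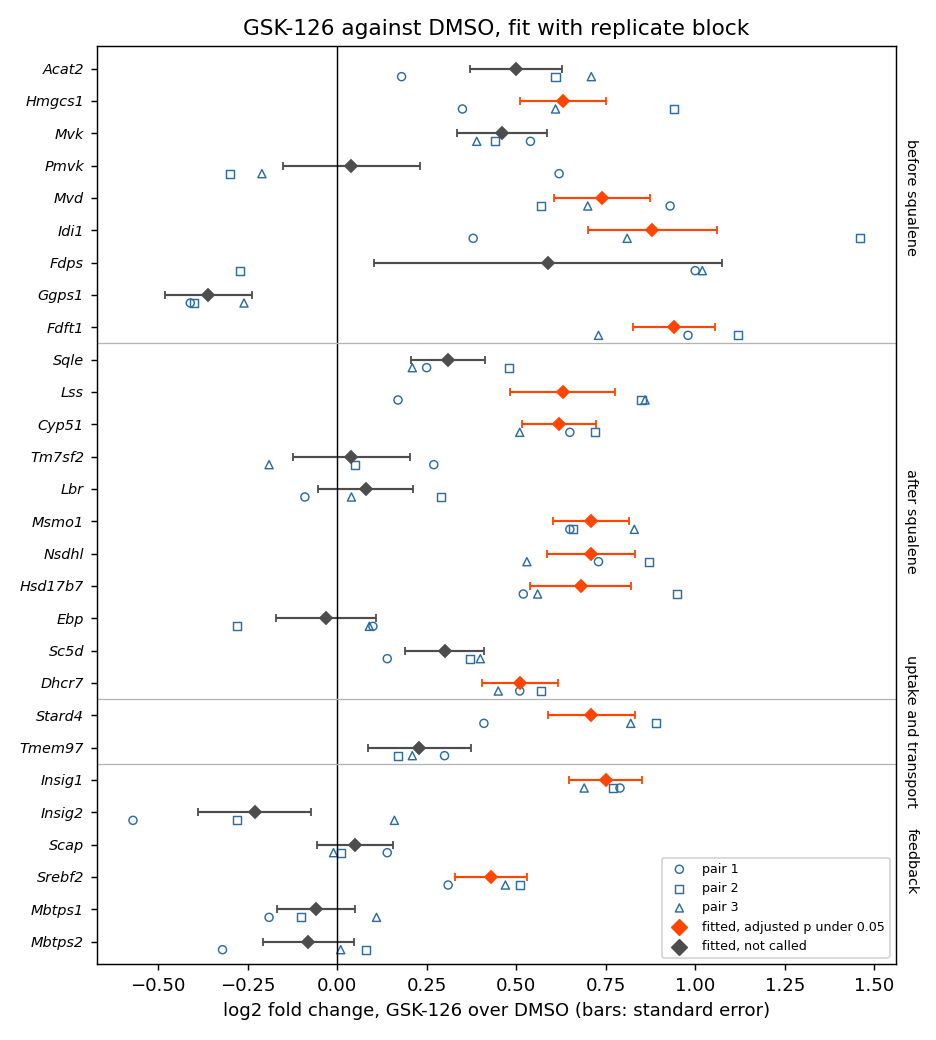
Fitted log2 fold change of GSK-126 over DMSO with its standard error (filled diamonds with bars, orange where the adjusted p was under 0.05) and the log2 ratio within each pair of libraries (open symbols) for the 28 genes in pathway order. The 13 orange diamonds lie between 0.43 and 0.94, and Pmvk, Tm7sf2, Lbr, Ebp, Scap, Mbtps1 and Mbtps2 sit near 0 with pairs on both sides of it.

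Sterol uptake and transport was represented by Stard4 and Tmem97, and no lipoprotein receptor is among the 28. Stard4, a cytosolic sterol carrier, measured 93.8, 99.9 and 76.7 CPM with DMSO and 125, 185 and 136 CPM with GSK-126, with separate groups, and was called higher (0.71, SE 0.122). Tmem97, an endoplasmic reticulum protein that is also the sigma-2 receptor, measured 27.0, 27.0 and 24.7 CPM against 33.3, 30.4 and 28.6 CPM. The Tmem97 groups were separate, but the difference was 0.23 (SE 0.143) and it was not called.

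The feedback genes split. Insig1 (chr5:28071363-28078662) measured 125, 144 and 113 CPM with DMSO and 217, 247 and 181 CPM with GSK-126, and the differences within pairs were 0.79, 0.77 and 0.69 on the log2 scale, with a fitted value of 0.75 (SE 0.102). Srebf2 itself (chr15:82147181-82205379) measured 361, 369 and 330 CPM against 449, 524 and 458 CPM (0.43, SE 0.0995). Both had separate groups and both were called higher. Both are known targets of SREBP2.

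The other feedback genes were not called, and each had groups that overlapped. Scap measured 117, 112 and 108 CPM against 129, 113 and 107 CPM (0.05, SE 0.105). Mbtps1, the site-1 protease, measured 168, 149 and 134 CPM against 147, 138 and 145 CPM (-0.06, SE 0.109), and Mbtps2, the site-2 protease, 58.8, 54.5 and 49.9 CPM against 47.1, 57.5 and 50.2 CPM (-0.08, SE 0.127). Insig2, the INSIG isoform whose transcription depends less on SREBP, measured 46.6, 42.1 and 33.8 CPM against 31.3, 34.7 and 37.8 CPM (-0.23, SE 0.158). Over the 6 feedback genes the median log2 fold change was -0.01, and its sign changed with the filter and with the libraries left out. Exon bases are shared with another gene for Scap (13.2%, other strand) and Mbtps2 (28.4%, same strand).

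Per length of exon, Insig1 stood above Insig2 in every library. The ratio of their RPKM was 3.01, 3.84 and 3.74 with DMSO (3.53 ± 0.454, SD, n = 3) and 7.77, 7.98 and 5.39 with GSK-126 (7.05 ± 1.44, SD, n = 3). The GSK-126 ratios all lay above the DMSO ratios. This pair was picked after its values were seen, so no test was run.

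Among DMSO libraries, which do not involve the treatment contrast, replicate 3 was the lowest for 17 of 28 genes, beside 30.4% of all genes tested. Among GSK-126 libraries, replicate 2 was the highest for 20 of 28 genes, beside 38.6% of all genes tested. Genes of 1 pathway share their libraries and are not independent replicates of the treatment. The counts called depended on these libraries. Without replicate 2, the fit with the block called 4 genes higher (Mvd, Fdft1, Msmo1 and Insig1), beside 0.752% of 16630 genes tested. Without replicate 3 it called 9, beside 1.28% of 16491 genes tested, and without replicate 1 it called 14, beside 2.4% of 16494. DESeq2 without the block called 6 (Hmgcs1, Mvd, Fdft1, Msmo1, Nsdhl and Insig1), beside 0.281%.

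The counts were also read against the share of all genes called higher under other settings that kept the block. DESeq2 called 14 of 28 (2.5% of all genes tested), limma-voom 13 (2.25%), and edgeR with RLE factors 13 (2.18%). With library totals alone edgeR called 11 (1.87%), with no filter 15 (2.45%), and with a filter at 1 CPM in 3 libraries 13 (2.23%).

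Other genes of the pathway came from lists set by role and not by how they moved, though with earlier results of these data known. Beside their counts, 2.23% of all genes tested were called higher and 1.42% lower. GSK-126 libraries lay wholly above DMSO libraries for 5.43% of all genes tested and wholly below for 5.44%. Of 13 genes of the non-sterol isoprenoid branch (dolichol, ubiquinone and prenylation enzymes) 0 were called, the median log2 fold change was 0.03, and 0 had separate groups. Of 12 genes of sterol sensing and degradation at the endoplasmic reticulum 0 were called (median -0.04), and of 10 intracellular sterol carriers 0 were called (median -0.07). Among the carriers 0 lay wholly above DMSO and 1 wholly below. This was Gramd1c, at 3.81, 3.13 and 2.72 CPM with DMSO and 2.17, 1.81 and 2.05 CPM with GSK-126. Of 8 lipoprotein receptor genes 0 were called higher and 1 lower (median 0.10), and 5 of 8 values were above 0. GSK-126 libraries lay wholly above DMSO for 2 of 8, Scarb1 (0.54, SE 0.149) and Lrpap1 (0.43, SE 0.113), which were not called. The gene called lower was Lrp8, a reelin and lipoprotein receptor, at 347, 552 and 336 CPM with DMSO and 199, 443 and 253 CPM with GSK-126 (-0.51, SE 0.116, adjusted p from edgeR 0.0358). Its groups overlapped, with replicate 2 the highest in both.

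Fatty acid genes, which share SREBP control with the sterol genes, were higher in part. Of 11 such genes 3 were called higher (2.23% of all genes tested) and 0 lower (1.42%), 10 of 11 values were above 0, and the median was 0.36. GSK-126 libraries lay wholly above DMSO libraries for 7 of 11 (5.43% of all genes tested). All 3 pairs were higher for 8 of 11 (19.7%). Fasn, the fatty acid synthase, measured 363, 304 and 372 CPM with DMSO and 488, 473 and 548 CPM with GSK-126 (0.54, SE 0.0998, adjusted p from edgeR 0.0143). Scd1, a desaturase, measured 142, 145 and 139 CPM against 209, 215 and 198 CPM (0.54, SE 0.101, adjusted p from edgeR 0.0150). The desaturase Fads1 measured 236, 228 and 239 CPM against 330, 324 and 301 CPM (0.44, SE 0.101, adjusted p from edgeR 0.0359). For these 3 genes the groups were separate.

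Genes that respond to sterol excess through the liver X receptor (LXR) were also higher in part. Of these, 2 of 8 were called higher (2.23% of all genes tested) and 0 lower (1.42%). The median was 0.13, and 7 of 8 values were above 0. GSK-126 libraries lay wholly above DMSO libraries for 1 of 8 (5.43%), and all 3 pairs were higher for 2 of 8 (19.7%). Abca1, a cholesterol efflux pump, measured 321, 166 and 285 CPM with DMSO and 588, 351 and 582 CPM with GSK-126, with separate groups (0.99, SE 0.101, adjusted p from edgeR 0.00083). Mylip, a ligase that degrades lipoprotein receptors, measured 22.5, 10.8 and 24 CPM against 45.4, 16.7 and 36.8 CPM, with groups that overlapped (0.77, SE 0.160, adjusted p from edgeR 0.0253). Of 6 genes of oxysterol and sterol ester turnover 1 was called higher (median 0.38), the sterol acyltransferase Soat1, at 129, 77.0 and 126 CPM against 170, 116 and 171 CPM (0.47, SE 0.106, adjusted p from edgeR 0.0334). Without the block 0 genes of these 7 lists were called.

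Some granule neuron markers were called and, in 1 or 2 genes a list, markers of other cell types. Over all genes tested 2.23% were called higher and 1.42% lower. In bulk RNA, fewer cells of a type and less RNA per cell cannot be told apart. Of 8 granule neuron markers 4 were called lower (Gabra6, Etv1, Rbfox3 and Neurod1), and their sum was 3550, 4930 and 3840 CPM with DMSO and 2570, 3750 and 2900 CPM with GSK-126. Of 8 endothelial and mural markers (6 tested) 2 were called higher (Flt1 and Pdgfrb). The list summed to 154, 137 and 196 CPM with DMSO against 240, 210 and 296 CPM with GSK-126. Of the mean DMSO sum of 162 CPM, Pdgfrb held 106 CPM. The other tested genes of this list were not called, with log2 fold changes of 0.37 (Pecam1), -0.01 (Kdr), 0.60 (Tek) and 0.62 (Rgs5). Of 5 fibroblast markers 1 was called higher (Col1a1), with sums from 6700 to 8770 CPM against 8800 to 9750 CPM. Of 10 microglial markers (9 tested) 1 was called higher (C1qb), with sums from 247 to 444 CPM against 290 to 625 CPM and Trem2 at 0 in every library.

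The 10 astrocyte markers, of which 1 was called higher (Gdf10), summed to 7310, 2420 and 4420 CPM with DMSO and 7590, 2530 and 3910 CPM with GSK-126, and were lowest in replicate 2 of both groups. Of 10 oligodendrocyte lineage markers 1 was called higher (Cspg4), with sums from 453 to 713 CPM against 524 to 840 CPM, and of 7 GABAergic neuron markers 1 was called lower (Slc32a1), with sums from 197 to 264 CPM against 172 to 197 CPM. Of 7 proliferation markers (6 tested) 0 were called. Since 2.23% of all genes tested were called higher and 1.42% lower, 1 call in a list this short says little about a cell type. The granule neuron gene Zic1 had 1340 to 1730 CPM with DMSO, and Gfap, an astrocyte filament, and Col1a1, a fibroblast collagen, had 760 to 2550 and 2160 to 3170 CPM, so the cultures held RNA of other cells beside that of neurons. The part of these cell types in the sterol gene differences was not tested.

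**Figure D4:**
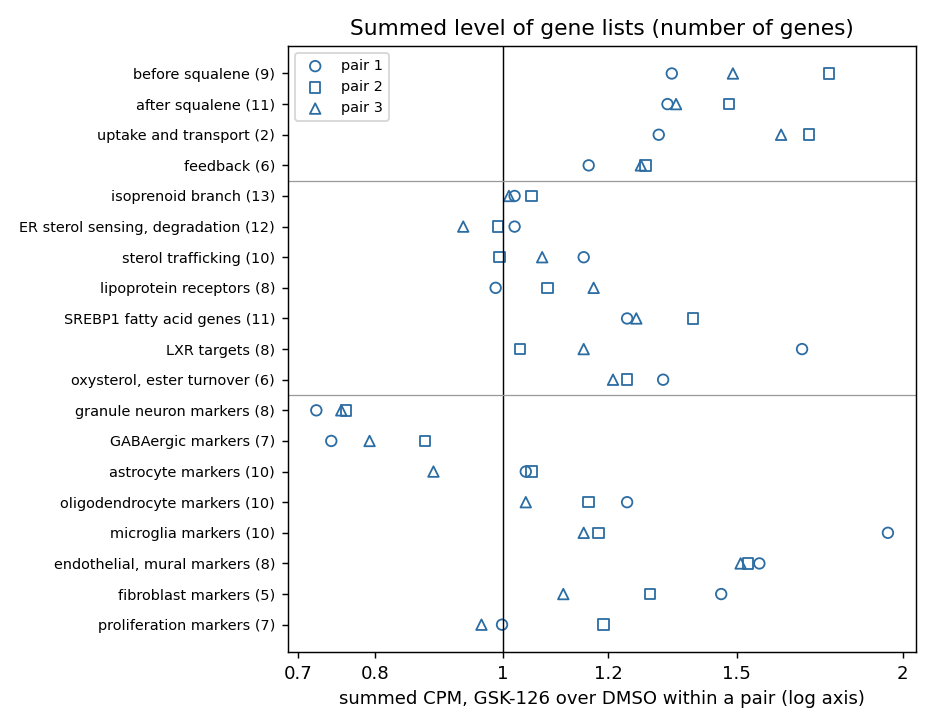
Ratio of summed CPM, GSK-126 over DMSO, within each of the 3 pairs of libraries (log axis), for the 4 pathway steps, for 7 related gene lists and for 8 lists of cell type markers, with the number of genes in each. The 4 steps lie above 1 in all pairs, from 1.16 for the feedback genes in pair 1 to 1.76 for the genes before squalene in pair 2. The granule neuron markers lie between 0.723 and 0.761. The endothelial and mural markers, most of whose summed CPM is Pdgfrb, lie between 1.51 and 1.56.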

How the data were processed

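RNA-seq counts of 3 DMSO and 3 GSK-126 libraries of CGN cultures were analysed. The deposited values were whole-number counts per gene, 1 table per library, which the authors made from reads trimmed with Trimmomatic 0.38 and aligned with STAR 2.7.2b (per the submitters' processing notes) to mm10, counting over exons with HTSeq. The strand setting is not given in the sources used here. Rows that name no gene held 58.4% to 60.85% of reads and were left out. Reads assigned to no feature made up 44.81% to 46.75% of reads per library, and the reason was not tested. Library totals ran from 8058760 to 12047837 counts, and no pair of libraries agreed within sampling noise (chi-square per degree of freedom at least 10.7).

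Genes passing filterByExpr (16343) were fitted in edgeR 4.0.16 (R 4.3.3; glmQLFit with legacy=TRUE, TMM factors) with terms for replicate number and agent. Benjamini-Hochberg adjustment covered all genes tested (threshold 0.05). The block was made part of the main fit in order to compare libraries within replicate numbers, a choice made with earlier results known. The study's methods define a culture replicate as neurons of pooled litters but do not say that a number marks 1 pool in both groups. The pairing is read from the data: same-numbered libraries correlated at 0.351 to 0.517 in their deviations, against -0.411 to -0.0103 for different numbers. Deviations within a group sum to 0 for each gene, so positive values for the same number push the others below 0. The negative values are therefore not separate evidence of pairing. The biological coefficient of variation was 0.142 with and 0.243 without the block. The study's methods name no model terms. DESeq2 1.42.0, limma 3.58.1, other scalings, other filters and leaving out libraries were the alternatives. The code was checked on simulated data in which 200 genes were changed. Ratios within pairs used a prior count of 2, RPKM used merged exon lengths of GENCODE M21, and exon overlaps came from the same annotation.

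The genes, their steps, the related lists and the markers were chosen with earlier results of these data known. Every one of the 28 genes is named, from each related list at most the 4 called genes of largest change, and other genes only where a result turns on them. No set test was run.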

Additional observations from a re-analysis of the deposited data

How the results depend on the processing

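The 13 genes called higher became 0 without the replicate block, 6 with DESeq2 and no block, 14 with DESeq2 and the block, 13 with limma-voom, 13 with RLE factors, 11 with library totals alone (without Lss and Srebf2), 15 with no filter and 13 with a filter at 1 CPM in 3 libraries. With edgeR the calls thus rest on the pairing, although the fold changes stayed near their size: the median of the 28 was 0.44 without the block, Hmgcs1 0.64 and Insig1 0.76. Leaving out both libraries of 1 number, with the block, gave from 4 (without replicate 2) to 14 genes, and leaving out any single library without the block gave 0 (and 0 of all genes tested). Genes called lower were 0 under each of these alternatives. The median of 0.48 ran from 0.40 to 0.47 when a number was left out with the block, and the unblocked 0.44 ran from 0.38 (without DMSO replicate 3, or without GSK-126 replicate 2) to 0.50 when single libraries were left out. The median before squalene, 0.59, was 0.49 with no replicate block, with DESeq2 and no block, and with limma-voom, and 0.56 without Fdps (added after seeing the data). It ran from 0.49 to 0.64 with a number left out and, unblocked, from 0.46 to 0.61 with single libraries left out. The feedback median of -0.01 became 0.00 with no filter and ran from -0.02 to 0.03 with a number left out. Without the block it was also -0.01, and ran from -0.04 to 0.06 (0.02 without GSK-126 replicate 2 or 3) with single libraries left out. The count of 18 genes higher in all pairs was 18 with prior counts of 0.5 and 5.

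Genes that changed sign were all among those not called. With the block and a number left out these were Pmvk (-0.26), Tm7sf2 (-0.07), Lbr (-0.01), Ebp (0.11), Scap (0.00), Mbtps1 (0.01) and Mbtps2 (0.04). With no block and a single library left out, which changes both choices, they were Pmvk (-0.10 and -0.11), Tm7sf2 (-0.09 and -0.12), Lbr (-0.08 and -0.07), Ebp (0.13), Scap (-0.03) and Mbtps1 (0.03). None changed sign when the block alone was dropped. The cause was not tested. With the block the p-values measure only how far the differences within the 3 pairs vary. Without it they measure only the spread between these 3 libraries a group. Fdps had too few counts for a difference of its size to be seen.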
